A study of Mus musculus with 12 samples.

Results

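The S100 genes described here are S100a3, S100a4, S100a6, S100a7a, S100a8, S100a9, S100a10, S100a11, S100a14 and S100a16. They were taken by gene name from 2 deposited tables of dorsal skin RNA sequencing, and all 10 were found among the 55401 genes that both tables list. S100 proteins are small proteins that bind calcium through EF hands, mostly as dimers, and then attach to partner proteins inside the cell. Some of them are also released, where they bind metal ions and act on receptors such as TLR4 and RAGE. In skin, several S100 genes are active in keratinocytes, and S100A8 and S100A9 are known for their rise in psoriatic epidermis and their abundance in neutrophils.

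Dorsal skin of C57BL/6J mice was taken on day 29 in 4 groups of 3 libraries each. CRS+IMQ mice had received both chronic restraint stress (CRS), in which an animal is confined repeatedly, and imiquimod (IMQ), a Toll-like receptor 7 agonist that gives mouse skin a psoriasis-like inflammation. IMQ mice had received imiquimod alone, CRS mice restraint stress alone, and control mice no treatment. Age, sex, dose and a vehicle were not given in the sources used here, and no label says whether each library is a different animal, so p-values measure only the spread between these samples, which may be technical.

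Values are FPKM, fragment numbers scaled to gene length and library size, as the authors deposited them. From 13248 to 13753 genes per library reached 1 FPKM, and depth, read from the spacing of the smallest FPKM values, came to about 18970000 to 20930000 fragments. This is an approximate figure, since 45.7% to 50.7% of those low values lay within 0.05 of a whole number of steps, and so are the fragment numbers given for single genes. Libraries of the stressed groups lay unusually close together. Over 2892 genes with at least 10 FPKM in every library, library-to-library variation had a median coefficient of 3.43% in CRS+IMQ, 11.6% in IMQ, 4.72% in CRS and 11.8% in control. The tissue carried epidermal markers throughout, with Krt14, a keratin of basal keratinocytes, at 7926 ± 92.1 FPKM in CRS+IMQ, 2036 ± 439 FPKM in IMQ, 869.9 ± 42.3 FPKM in CRS and 1972 ± 435 FPKM in control (SD, n = 3 each). It also held muscle RNA: the summed level of 7 skeletal muscle genes was 10770 to 11020 FPKM in CRS+IMQ, 18010 to 25700 FPKM in IMQ, 36080 to 37260 FPKM in CRS and 9717 to 22310 FPKM in control. The part of muscle RNA in the S100 values was not tested.

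The summed FPKM of the 10 genes was 4973 ± 89.2 in CRS+IMQ, 1623 ± 177 in IMQ, 1124 ± 6.35 in CRS and 1732 ± 359 in control (SD, n = 3 each). That was 1.23% of all FPKM in CRS+IMQ, against 0.404% in IMQ, and 0.272% in CRS, against 0.451% in control. The make-up of the sum differed as well. S100a8 and S100a9 together held 52.7% ± 0.585 of it in CRS+IMQ, 8.62% ± 7.04 in IMQ, 3.06% ± 0.553 in CRS and 0.327% ± 0.158 in control. S100a11 was the most abundant of the 10 in IMQ, CRS and control skin, with 43.95%, 41.96% and 52.8% of the sum, and held 29.3% in CRS+IMQ skin.

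**Figure D1:**
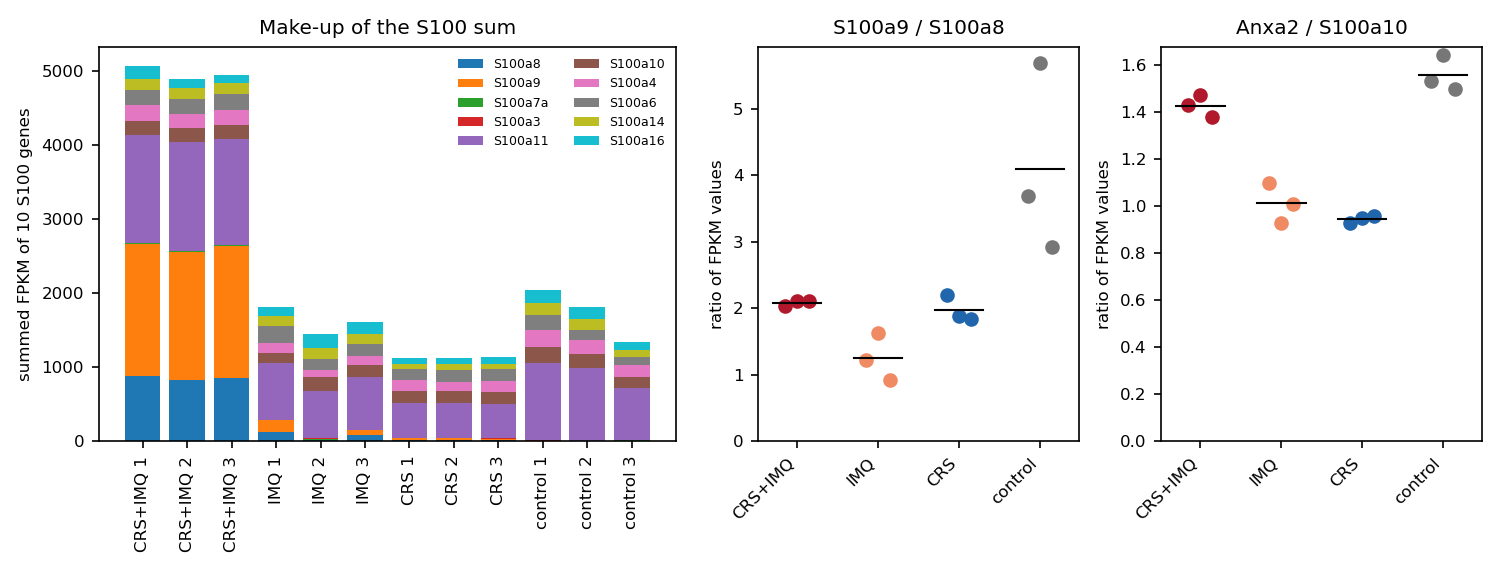
Left, summed FPKM of the 10 S100 genes in each library, split by gene. Middle and right, the ratio of S100a9 to S100a8 and of Anxa2 to S100a10 in each library, with the group mean as a black line; the CRS+IMQ libraries have sums of 4897 to 5071 FPKM and all others 2041 FPKM or less.

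Any gene that reached 1 FPKM in 3 or more of the fitted libraries was tested with limma on log2(FPKM + 1), and a call had an adjusted p under 0.05 after Benjamini-Hochberg adjustment over all genes tested. Log2 changes are differences on this scale, where the change of a low gene is understated. Folds divide mean FPKM by mean FPKM. With 3 libraries against 3 the smallest p of an exact test is 0.1, so calls rest on limma's variance model. A gene could pass the filter through 1 group alone, which then had to be the higher one.

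Without imiquimod, the question was what restraint stress alone did. In CRS against control skin 3 members were higher (S100a3, S100a8 and S100a9) and 4 were lower (S100a4, S100a11, S100a14 and S100a16), with 10 tested. Of all 13944 genes tested 43.6% were called, 15.3% higher and 28.4% lower, so 7 of 10 calls were made against a high background. The share of these calls that were higher was 35.01%, 45.15% after median-ratio scaling and 56.05% after quantile normalization, which moved the median log2 change of all genes from -0.087 to 0.08. The libraries of the groups did not overlap for 7 members, against 58.2% of all genes. The count of members called was 4 without CRS replicate 1 or without control replicate 2, and 3 (S100a3, S100a8 and S100a9) when the CRS libraries were averaged to 1 sample. Wherever stressed groups are averaged in this way, the spread comes from the control and IMQ libraries in the fit alone, and the lone stressed sample is assumed to vary as they do.

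On imiquimod, the same question was asked of CRS+IMQ against IMQ skin, where 9 members were tested. Higher were 5 members (S100a4, S100a7a, S100a8, S100a9 and S100a11) and 0 were lower, while S100a6, S100a10, S100a14 and S100a16 were not called. S100a7a reached 1 FPKM in CRS+IMQ libraries alone, so it could only come out higher. Among the other 8 members tested 4 were higher and 0 lower. Of all 13981 genes tested 36.9% were called, 18.7% higher and 18.2% lower. The libraries did not overlap for 5 of 10 members, against 54.0% of all genes tested. S100a3 had too few libraries at 1 FPKM to be tested. The count of members called was 2 without any 1 of the CRS+IMQ replicates 1, 2 and 3, where S100a7a failed the filter and was not tested, and 1 (S100a7a) with the CRS+IMQ libraries averaged to 1 sample.

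The effect of imiquimod was read in 2 comparisons whose groups stand in different deposited tables, so that the table and imiquimod cannot be told apart. In IMQ against control skin, 2 of the 9 members tested were higher (S100a8 and S100a9) and 0 were lower. Of 13981 genes 19.6% were called, 6.11% higher and 13.5% lower, and 31.2% of the calls were higher, or 42.84% after quantile normalization. The libraries did not overlap for 3 members, against 42.2% of all genes. The count of members called was 0 without IMQ replicate 3 or without any 1 of the control replicates, and 4 without IMQ replicate 1. In CRS+IMQ against CRS skin, 9 members were higher and S100a3 was lower. S100a3 reached 1 FPKM in CRS libraries alone, so it could only come out lower. However, 60.9% of 14021 genes were called, 35.0% higher and 25.9% lower. Higher were 57.5% of these calls, or 43.48% after quantile normalization. In that comparison the libraries did not overlap for any of the 10 members, against 67.8% of all genes tested. With each stressed group averaged to 1 sample that comparison sets 1 sample against 1, so it has no spread of its own; with the spread of control and IMQ libraries, 3 members were called.

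Whether the change with stress differed with and without imiquimod was tested as an interaction over all 12 libraries, since it needs all 4 groups. An earlier simulation with all 12 libraries fitted together had given many false calls for IMQ against control. The interaction also pools groups of unlike spread, so its calls are less certain. The signed log2 change on imiquimod minus that without it was positive for S100a4, S100a7a, S100a9, S100a11 and S100a14 and negative for S100a3, so 6 of 10 members were called. Of 14864 genes tested 49.3% were called, 28.1% with a positive and 21.2% with a negative difference. Positive were 56.96% of these calls, or 43.7% after quantile normalization. With each stressed group averaged to 1 sample 2 members were called (S100a7a and S100a11). The median log2 difference was 1.15 over the members, which were chosen with earlier results known, against 0.04 over all genes tested. It was -0.928 over 3 further S100 genes that were tested, of which 1 was called positive and 2 negative. The members thus do not stand for the whole S100 family.

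**Figure D2:**
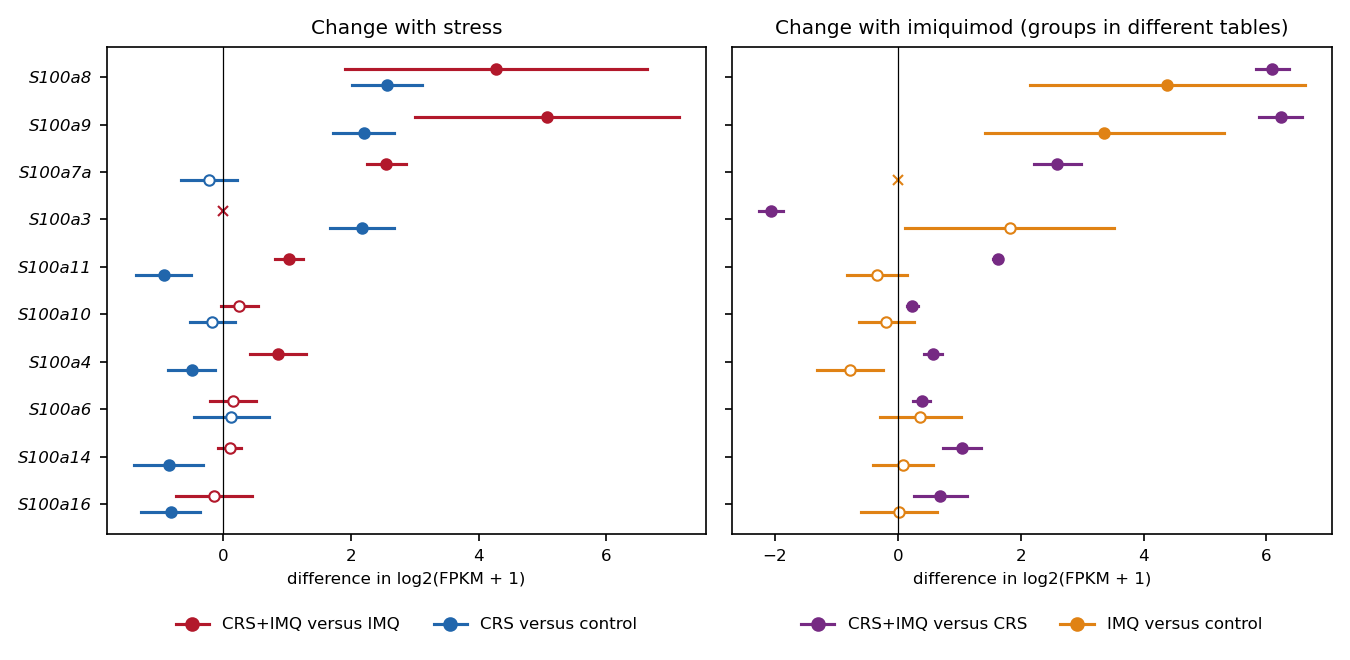
Differences in log2(FPKM + 1) for the 10 S100 genes with their 95% confidence intervals from limma; left, the change with stress on imiquimod (CRS+IMQ versus IMQ) and without it (CRS versus control), and right, the change with imiquimod under stress (CRS+IMQ versus CRS) and without it (IMQ versus control), with 3 libraries a group. Filled points were called, open points were not, and a cross at 0 marks a gene that was not tested; S100a11 lies at 1.03 on the left for CRS+IMQ versus IMQ and at -0.93 for CRS versus control.

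S100a8 and S100a9 form calprotectin, a heterodimer that binds zinc and manganese and signals through TLR4. Their genes lie 22.6 kb apart on chromosome 3 (GRCm38, GENCODE M21), S100a8 at 90668978 to 90670035 on the plus strand and S100a9 at 90692632 to 90695721 on the minus strand. Their promoter windows are shown because both genes moved together over the widest range of the family. Each runs from 250 bases before to 50 after the start of the RefSeq transcript on GRCm38.p6, read in the direction of the gene, with chr3:90668821-90669120 for S100a8 on the plus strand and chr3:90695672-90695971 for S100a9 on the minus strand. Capitals mark matches on either strand to TATAAA, a core promoter element, and to TTGCNNAA, a motif of C/EBP factors.
S100a8: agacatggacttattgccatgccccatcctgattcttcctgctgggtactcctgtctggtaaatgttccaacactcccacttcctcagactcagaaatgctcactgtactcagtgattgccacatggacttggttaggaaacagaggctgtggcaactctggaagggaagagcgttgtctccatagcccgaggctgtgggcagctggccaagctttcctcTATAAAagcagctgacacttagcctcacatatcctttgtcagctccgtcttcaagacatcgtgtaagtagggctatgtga
S100a9: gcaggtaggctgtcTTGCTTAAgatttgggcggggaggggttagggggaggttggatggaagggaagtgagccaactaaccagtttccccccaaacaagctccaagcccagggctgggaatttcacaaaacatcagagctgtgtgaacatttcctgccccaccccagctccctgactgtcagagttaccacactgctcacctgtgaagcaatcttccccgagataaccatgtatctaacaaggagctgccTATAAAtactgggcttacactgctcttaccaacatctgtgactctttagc
The S100a8 window held TATAAA at positions -30 to -25. The S100a9 window held it at 1 to 6 from the RefSeq start, and TTGCNNAA at -236 to -229. Of all 32851 windows of the same length 13.6% held TATAAA and 10.8% held TTGCNNAA. The searches also covered TGANTCA (AP-1), TTCNNNGAA (STAT) and AGAACA (one arm of the glucocorticoid receptor site), none of which is in either window.

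S100a8 had 879, 824 and 849 FPKM in the CRS+IMQ libraries, against 126, 7.64 and 76.0 FPKM in the IMQ libraries. It had 11.8, 13.2 and 9.63 FPKM in the CRS libraries, against 1.21, 0.540 and 1.72 FPKM in the control libraries. The CRS+IMQ libraries lay far above all others and the control libraries below all others, and IMQ replicate 2 fell below the CRS libraries. In control skin these levels correspond to 5 to 17 fragments per library. S100a9 followed the same order, with 1786, 1730 and 1790 FPKM in CRS+IMQ, against 153, 12.4 and 69.4 FPKM in IMQ. It had 25.9, 24.8 and 17.7 FPKM in CRS, against 4.46, 3.07 and 5.02 FPKM in control, which stand for 32 to 53 fragments per library. Again the 3 IMQ libraries were spread widely, with replicate 2 below the CRS libraries, so the order of IMQ and CRS skin is not settled by these data for either gene. By mean FPKM, S100a9 ranked 27th and S100a8 62nd of 55401 genes in CRS+IMQ skin, and they ranked 8384th and 13288th in control skin.

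**Figure D3:**
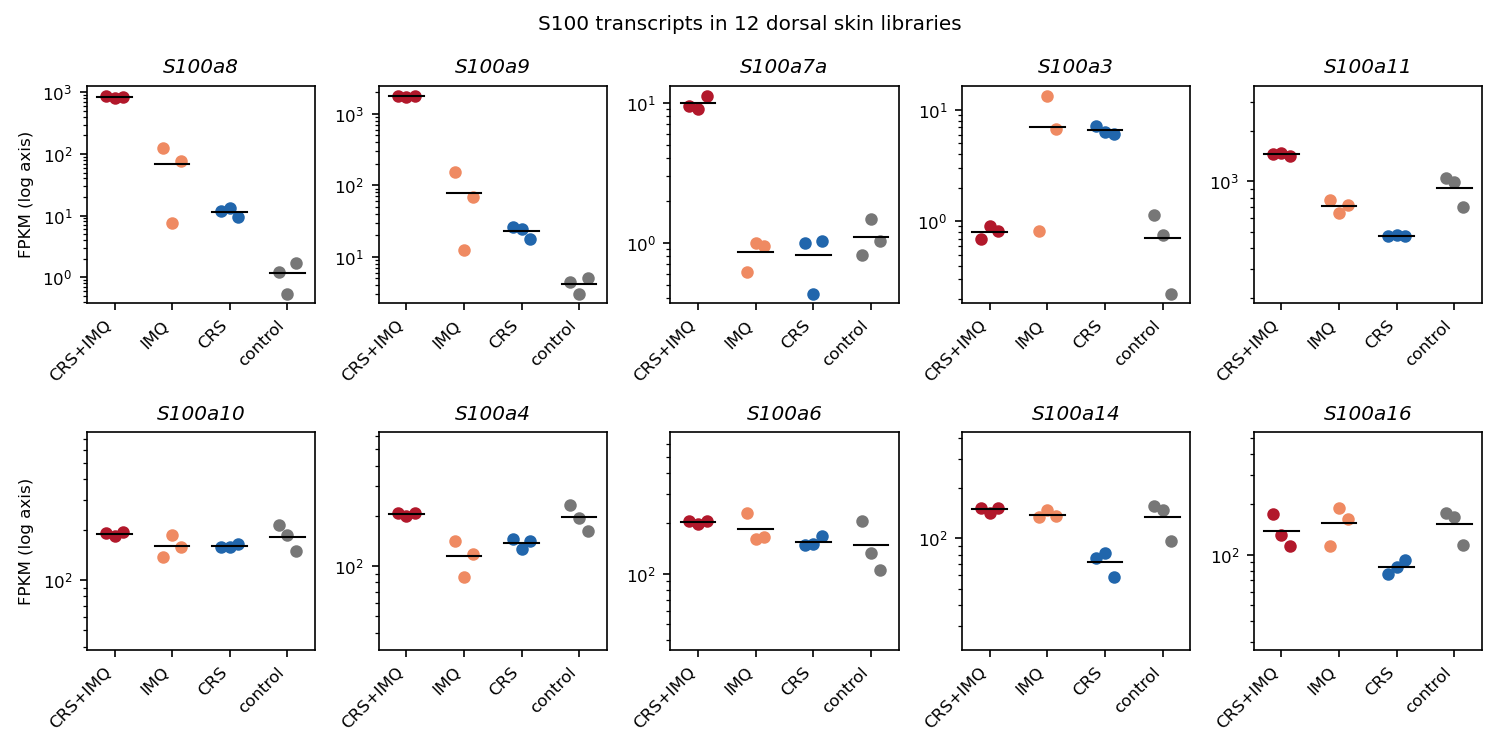
FPKM of each S100 gene in the 12 libraries, on log axes that differ between panels, with the group mean as a black line. S100a8 and S100a9 separate CRS+IMQ from all other libraries, S100a3 is high in CRS and in 2 of 3 IMQ libraries, and S100a11, S100a14 and S100a16 are lowest in CRS.

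With stress on imiquimod, S100a8 was 12.2-fold higher in CRS+IMQ than in IMQ skin (log2 change 4.28, SE 0.969, adjusted p = 0.0171) and S100a9 was 22.6-fold higher (5.07, SE 0.848, adjusted p = 0.00556). Without CRS+IMQ replicate 1, 2 or 3 the change in S100a8 was 4.26 to 4.30, and in these fits with fewer samples the adjusted p was 0.0601 to 0.0614. The size of the change depended on the IMQ libraries, and S100a8 changed by 5.04 without IMQ replicate 1 and by 3.11 without IMQ replicate 2. S100a9 changed by 5.85 without IMQ replicate 1 and by 4.09 without IMQ replicate 2, and it was called in each of the 6 fits that left out 1 library. Averaging the CRS+IMQ libraries to 1 sample gave an adjusted p of 0.237 for S100a8 and 0.148 for S100a9.

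Without imiquimod, S100a8 was 9.98-fold higher in CRS than in control skin (log2 change 2.57, SE 0.225, adjusted p = 0.000491). S100a9 was 5.45-fold higher (2.20, SE 0.199, adjusted p = 0.000532). Both calls held in each of the 6 fits that left out 1 library. The changes with stress on and off imiquimod differed for S100a9 (2.87, SE 0.935, adjusted p = 0.0258), though without CRS replicate 3, control replicate 1 or control replicate 3 the adjusted p was 0.0574, 0.0512 and 0.0529, and the difference was 1.89 without IMQ replicate 2. With each stressed group averaged to 1 sample its adjusted p was 0.282, and with no filter 0.0546. They were not shown to differ for S100a8 (1.71, SE 1.07, adjusted p = 0.21), whose difference was 2.48 (adjusted p = 0.0473) without IMQ replicate 1 and 0.541 without IMQ replicate 2.

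Both genes were also higher on imiquimod alone: S100a8 was 60.2-fold higher in IMQ than in control skin (4.38, SE 0.939, adjusted p = 0.0212) and S100a9 18.7-fold higher (3.36, SE 0.817, adjusted p = 0.032). Neither call held without IMQ replicate 3 or without control replicate 1, 2 or 3, where the adjusted p was 0.0538 to 0.0827 for S100a8 and 0.0760 to 0.110 for S100a9. With no filter they were 0.0552 and 0.0759. Without IMQ replicate 2 the change was 5.55 for S100a8 and 4.35 for S100a9. Under stress, S100a8 was 73.7-fold higher in CRS+IMQ than in CRS skin (6.10, SE 0.107, adjusted p = 2.87e-07) and S100a9 77.6-fold higher (6.24, SE 0.140, adjusted p = 8.41e-07). The ratio of S100a9 to S100a8 in FPKM was 2.08 ± 0.0427 in CRS+IMQ, 1.25 ± 0.355 in IMQ, 1.97 ± 0.194 in CRS and 4.10 ± 1.43 in control (SD, n = 3 each). It was thus above 1 in 11 of 12 libraries, the exception being IMQ replicate 3 at 0.913.

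In bulk tissue, more cells of a type and more RNA per cell cannot be told apart, so the markers of the cell types that carry S100a8 and S100a9 are given beside them. Of 16 neutrophil genes 15 were tested in CRS+IMQ against IMQ skin. Of these 10 reached 1 FPKM in CRS+IMQ libraries alone, so that they could only come out higher, and the other 5 were all higher too. Over all genes tested there 18.7% were called higher. The summed level of the list was 277 to 312 FPKM in CRS+IMQ, against 12.5 to 22.7 FPKM in IMQ. Csf3r, the receptor for granulocyte colony-stimulating factor, had 28.5 ± 0.669 FPKM in CRS+IMQ and 1.19 ± 0.274 FPKM in IMQ, and Mmp8, a neutrophil collagenase, 16.97 ± 0.605 and 0.0559 ± 0.0329 FPKM in the same groups. Their part in the S100a8 and S100a9 values was not tested. In CRS against control skin the list split. Of the 6 genes tested the 4 called higher reached 1 FPKM in CRS libraries alone and could only come out higher. Lower were 2, of which 1 (Csf3r) reached 1 FPKM in control alone and could only come out lower. The sum was 23.9 to 28.4 FPKM in CRS, against 30.0 to 50.25 FPKM in control. The control sum was mostly Il1r2, a decoy receptor, at 33.7 ± 9.95 FPKM, and Trem1, Ly6g and Mpo were listed at 0 in all 3 control libraries. Il1r2 was 4.47-fold lower in CRS than in control skin (adjusted p = 0.000927), and Csf3r, with 0.783 ± 0.0884 FPKM in CRS and 3.19 ± 0.490 FPKM in control, was 4.07-fold lower (adjusted p = 0.000509). The granule genes Ngp and Camp were higher in CRS (8.51 ± 1.74 and 3.27 ± 0.422 FPKM) than in control skin (0.0133 ± 0.0230 and 0.123 ± 0.107 FPKM), with adjusted p of 0.000116 and 0.000173.

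Activated keratinocytes, which switch on Krt6, Krt16 and small proline-rich proteins in wounds and psoriasis, also carry S100A8 and S100A9. Of 12 genes of this state 11 were higher in CRS+IMQ than in IMQ skin, where 18.7% of all genes tested were called higher. Among the 11, 1 had reached 1 FPKM in CRS+IMQ alone. The summed level of the 12 was 11730 to 11980 FPKM in CRS+IMQ, against 1384 to 1580 FPKM in IMQ. Between CRS and control skin the sums overlapped (575 to 604 FPKM in CRS, 454 to 643 FPKM in control), with 3 of 9 tested genes higher and 5 lower. The filter fixed the direction of those that reached 1 FPKM in 1 group alone, 4 in control and 1 (Lcn2) in CRS. Among the 4 genes that reached it in both groups 2 were higher and 1 was lower. Over all genes tested 15.3% were called higher and 28.4% lower. Krt6b, a keratin of activated epidermis, was 9.81-fold higher in IMQ than in control skin (2.78, SE 0.558, adjusted p = 0.017). In the IMQ group, S100a8, the neutrophil sum and the activated keratinocyte sum had the same order of libraries, with replicate 1 highest and replicate 2 lowest. The neutrophil sum was nevertheless lower in IMQ (12.5 to 22.7 FPKM) than in control skin (30.0 to 50.25 FPKM), where S100a8 was higher in IMQ. Only 2 neutrophil genes were tested there, Il1r2 and Csf3r, and both were lower. Among 9 activated keratinocyte genes tested there 7 were higher and 0 lower. The part of these cells in the S100a8 values was not tested.

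**Figure D4:**
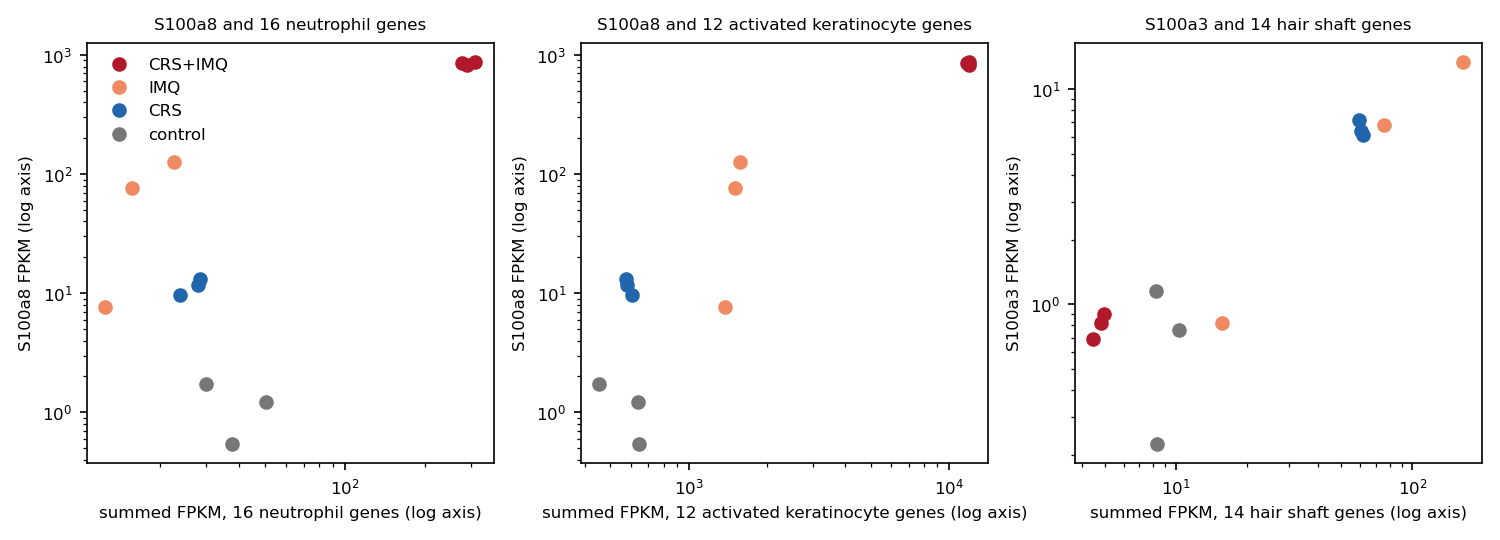
S100a8 against the summed FPKM of 16 neutrophil genes (left) and of 12 activated keratinocyte genes (middle), and S100a3 against the summed FPKM of 14 hair shaft genes (right), each point 1 of 12 libraries on log axes. The CRS+IMQ libraries stand apart in the left and middle panels at 824 to 879 FPKM of S100a8, and in the right panel the IMQ libraries run from 0.816 to 13.4 FPKM of S100a3.

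The receptor genes of released S100 proteins gave a mixed count. Of 10 receptor and signalling genes 9 were tested. In CRS+IMQ against IMQ skin 5 were higher, 1 was lower and 3 were not called, where 36.9% of all genes were called. In CRS against control skin 2 were higher, 4 were lower and 3 were not called, where 43.6% of all genes were called. Cd14, the co-receptor of TLR4, had 32.6 ± 0.984 FPKM in CRS+IMQ and 4.55 ± 0.166 FPKM in IMQ (7.17-fold higher, adjusted p = 1.12e-05), and 2.23 ± 0.371 FPKM in CRS and 10.7 ± 2.06 FPKM in control (4.82-fold lower, adjusted p = 0.000399). Tlr4 itself was low, at 1.91 ± 0.371 FPKM in CRS+IMQ and 0.711 ± 0.194 FPKM in IMQ, and at 0.770 ± 0.0396 FPKM in CRS and 1.27 ± 0.133 FPKM in control. It was higher in the first comparison (0.76, SE 0.133, adjusted p = 0.00668) and lower in the second (-0.36, SE 0.081, adjusted p = 0.0142). Tlr4 reached 1 FPKM in CRS+IMQ alone in the first and in control alone in the second, so the filter fixed both directions. Ager, which encodes RAGE, was 2.65-fold higher in CRS than in control skin (0.91, SE 0.159, adjusted p = 0.00565) and was not called between CRS+IMQ and IMQ skin (-0.35, SE 0.178, adjusted p = 0.176). Cd14 thus moved with S100a8 on imiquimod and against it without imiquimod. Macrophages, which also express Cd14, had 11 of 11 marker genes higher in the first comparison and 11 of 11 lower in the second.

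Cytokines and factors known to induce S100a8 and S100a9 in keratinocytes, listed together with the receptor genes Il17ra, Il17rc and Il22ra1, were 17 genes. Of 13 tested in CRS+IMQ against IMQ skin 10 were higher and 0 lower, 3 of them having reached 1 FPKM in CRS+IMQ alone. Of all genes tested there 18.7% were called higher. Of 11 tested in CRS against control skin 1 was higher and 6 lower, and 3 had reached 1 FPKM in control alone. Of all genes tested in that comparison 28.4% were called lower. Il1b, an inflammatory cytokine, had 23.8 ± 1.09 FPKM in CRS+IMQ and 0.782 ± 0.432 FPKM in IMQ (30.5-fold higher, adjusted p = 4.49e-05). Cebpd, a transcription factor of the C/EBP family, had 14.2 ± 1.48 and 4.41 ± 0.716 FPKM in the same groups (3.21-fold higher, adjusted p = 0.000455). Il1f6 and Il1f9, the older symbols of interleukin-36 alpha and gamma, were lower in CRS than in control skin, with log2 changes of -2.94 (adjusted p = 0.000378) and -3.799 (adjusted p = 0.000231), where S100a8 and S100a9 were higher. Il1f6 was among the 3 that reached 1 FPKM in control alone, so it could only come out lower. Il17a reached at most 0.262 FPKM in any library and Il22 was listed at 0 in all 12. Both were singled out after their values were seen.

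S100a7a is the mouse relative of human psoriasin, an antimicrobial S100 protein of inflamed epidermis. It lies at 90654017 to 90658669 on chromosome 3, and its promoter window, chr3:90654052-90654351 on the plus strand (RefSeq, GRCm38.p6), is shown because the level of this gene set CRS+IMQ skin apart. Capitals mark its match to TTCNNNGAA, the STAT motif, at -169 to -161, which 8.30% of all windows hold; the other motifs searched are not in this window.
S100a7a: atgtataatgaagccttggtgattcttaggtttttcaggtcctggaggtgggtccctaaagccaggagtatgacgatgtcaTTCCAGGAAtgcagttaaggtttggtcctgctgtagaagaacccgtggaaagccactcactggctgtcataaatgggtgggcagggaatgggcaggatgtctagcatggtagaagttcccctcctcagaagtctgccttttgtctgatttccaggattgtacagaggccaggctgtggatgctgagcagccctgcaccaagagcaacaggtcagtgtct
S100a7a had 9.46, 9.06 and 11.2 FPKM in CRS+IMQ, against 0.614, 0.999 and 0.953 FPKM in IMQ. It had 0.989, 0.433 and 1.02 FPKM in CRS, against 0.816, 1.47 and 1.03 FPKM in control. The CRS+IMQ libraries lay above all others, and the libraries of IMQ, CRS and control overlapped, at 11 to 39 fragments per library against 236 to 295 in CRS+IMQ. The gene entered the first comparison through the CRS+IMQ libraries alone. It was 11.6-fold higher in CRS+IMQ than in IMQ skin (2.56, SE 0.125, adjusted p = 5.74e-05) and 12.1-fold higher than in CRS skin (2.60, SE 0.157, adjusted p = 3.04e-05). Between CRS and control skin it was not called (-0.22, SE 0.180, adjusted p = 0.367), and the change with stress differed with imiquimod (2.78, SE 0.231, adjusted p = 3.94e-06). Without any 1 CRS+IMQ library the gene no longer reached 1 FPKM in 3 libraries of CRS+IMQ and IMQ, and was not tested there.

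S100a3 is known from the cuticle of the hair shaft, where in humans its protein is citrullinated by PADI3. It had 0.691, 0.901 and 0.819 FPKM in CRS+IMQ, against 0.816, 13.4 and 6.82 FPKM in IMQ. It had 7.14, 6.38 and 6.12 FPKM in CRS, against 1.15, 0.759 and 0.224 FPKM in control. CRS and 2 of the IMQ libraries were high, and IMQ replicate 1 lay within the range of CRS+IMQ. The control values stand for 2 to 16 fragments. S100a3 was 9.21-fold higher in CRS than in control skin (2.18, SE 0.207, adjusted p = 0.000633) and 8.14-fold lower in CRS+IMQ than in CRS skin (-2.06, SE 0.077, adjusted p = 3.68e-06). It entered the fit of CRS+IMQ with CRS through the CRS libraries alone, and with each stressed group averaged to 1 sample that adjusted p was 0.381.

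Between IMQ and control skin S100a3 was not called (1.82, SE 0.713, adjusted p = 0.121), but it was without IMQ replicate 1 (2.67, adjusted p = 0.00643). With no filter its change in CRS+IMQ against IMQ skin was -1.71 (SE 0.738, adjusted p = 0.197), whereas the authors' deposited table gives a fold change of 0.115 with a q-value of 4.85e-05. The interaction was -3.89 (SE 0.809, adjusted p = 0.0024), and with each stressed group averaged to 1 sample its adjusted p was 0.119. The gene model of S100a3, at 90560578 to 90602702, contains S100a2 on the same strand over 1262 bases and overlaps Gm42674, which also spans S100a4, over 799 bases, so its values are uncertain. S100a2 was at 0.0240 FPKM or less and Gm42674 was listed at 0 in all 12 libraries.

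Hair shaft genes are given beside S100a3 by their sum. The summed level of 14 of them was 4.47 to 4.95 FPKM in CRS+IMQ, 15.6 to 164 FPKM in IMQ, 59.2 to 61.6 FPKM in CRS and 8.23 to 10.3 FPKM in control. Of 12 tested in CRS against control skin 9 reached 1 FPKM in CRS libraries alone and could only come out higher, and of the other 3 genes 1 was higher and 0 lower. In CRS+IMQ against CRS skin 11 of 12 likewise passed through CRS alone. Krt35, a keratin of the growing hair shaft, was 66.8-fold higher in CRS than in control skin (4.39, SE 0.152, adjusted p = 5.1e-05). It was among the genes that reached 1 FPKM in CRS alone there. Across the IMQ replicates 1, 2 and 3 the hair shaft sum was 15.6, 164 and 76.2 FPKM, the order of S100a3 and the reverse of the order of S100a8. Padi3 was 10.6-fold higher in CRS (1.39 ± 0.172 FPKM) than in control skin (0.132 ± 0.0341 FPKM), with an adjusted p of 0.000391. Of these groups it reached 1 FPKM in CRS alone, so it could only come out higher. The part of hair follicle cells in the S100a3 values was not tested.

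S100a11, whose protein binds annexin A1 and in human keratinocytes acts on growth, was the family's most abundant gene outside CRS+IMQ skin. It lies at 93520488 to 93526287 on chromosome 3, and its window, chr3:93520246-93520545 on the plus strand (RefSeq, GRCm38.p6), is shown because it was the abundant member whose change with stress turned round with imiquimod. Capitals mark TGANTCA, the AP-1 motif, at -136 to -130 and at -38 to -32, and 7.81% of all windows hold at least 1 match.
S100a11: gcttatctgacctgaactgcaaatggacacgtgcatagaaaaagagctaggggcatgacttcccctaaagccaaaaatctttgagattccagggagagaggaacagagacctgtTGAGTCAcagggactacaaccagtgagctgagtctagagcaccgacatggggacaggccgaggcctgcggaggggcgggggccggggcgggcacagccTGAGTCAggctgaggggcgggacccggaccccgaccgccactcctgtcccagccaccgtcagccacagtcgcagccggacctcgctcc
S100a11 had 1465, 1477 and 1427 FPKM in CRS+IMQ, against 769, 648 and 719 FPKM in IMQ. It had 469.5, 475 and 469.4 FPKM in CRS, against 1051, 986 and 704 FPKM in control. CRS+IMQ libraries were above all others and CRS libraries below all others, and IMQ and control libraries overlapped. The gene was 2.04-fold higher in CRS+IMQ than in IMQ skin (1.03, SE 0.090, adjusted p = 0.00041) and 1.94-fold lower in CRS than in control skin (-0.93, SE 0.178, adjusted p = 0.00767), and the difference between these changes was 1.97 (SE 0.199, adjusted p = 1.66e-05). With each stressed group averaged to 1 sample the adjusted p was 0.0664 for the first and 0.196 for the second. IMQ and control skin were not shown to differ (-0.34, 95% interval -0.83 to 0.14, adjusted p = 0.276).

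Annexin A1 moved in the same directions. Anxa1 had 176.5 ± 3.85 FPKM in CRS+IMQ and 55.6 ± 1.69 FPKM in IMQ, and 49.5 ± 3.20 FPKM in CRS and 109 ± 17.3 FPKM in control (SD, n = 3 each). It was 3.18-fold higher in the first pair (adjusted p = 2.61e-05) and 2.19-fold lower in the second (adjusted p = 0.00159). Beside the lower S100a11 level in CRS skin stood a lower level of differentiated keratinocyte genes: 10 of 10 were lower than in control, 2 of which had reached 1 FPKM in control alone, and their sum was 478 to 509 FPKM in CRS, against 6437 to 11480 FPKM in control. Over all genes tested in that comparison 28.4% were called lower. In CRS+IMQ against IMQ skin 1 of 9 was higher and 4 were lower, where 18.7% of all genes tested were called higher and 18.2% lower. The part of these cells in the S100a11 values was not tested.

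S100a14 and S100a16 are epithelial members that lie next to each other, at 90526856 to 90528837 and at 90537254 to 90543151. S100a14 had 152.2, 142 and 152.8 FPKM in CRS+IMQ, against 133.5, 147 and 135.5 FPKM in IMQ. It had 75.9, 82.2 and 58.96 FPKM in CRS, against 157, 147 and 95.9 FPKM in control. Only the CRS libraries stood apart, below all others, and the other groups overlapped. S100a16 had 174, 132 and 112 FPKM in CRS+IMQ, against 112, 189 and 164 FPKM in IMQ. It had 76.2, 84.1 and 92.9 FPKM in CRS, against 176, 167 and 114 FPKM in control. Its CRS libraries too were the lowest of the 12.

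S100a14 was 1.84-fold lower in CRS than in control skin (-0.85, SE 0.224, adjusted p = 0.0238), and the call was lost without CRS replicate 1 or 3 or control replicate 1 or 2 (adjusted p = 0.0603 to 0.0816). S100a16 was 1.804-fold lower (-0.82, SE 0.189, adjusted p = 0.0151), which did not hold when CRS replicate 1 or 2 or control replicate 2 was left out (adjusted p = 0.0521 to 0.0583). In CRS+IMQ against IMQ skin neither was called, at 0.10 (95% interval -0.08 to 0.28, adjusted p = 0.319) for S100a14 and -0.15 (95% interval -0.74 to 0.45, adjusted p = 0.672) for S100a16. The changes with stress differed with imiquimod for S100a14 (0.96, SE 0.25, adjusted p = 0.00884; 0.625 with adjusted p = 0.0503 after quantile normalization) and were not shown to differ for S100a16 (0.68, SE 0.328, adjusted p = 0.111; 0.873 with adjusted p = 0.0397 without control replicate 3). Both were higher in CRS+IMQ than in CRS skin, by 2.06-fold (adjusted p = 0.000723) and 1.65-fold (adjusted p = 0.0149). With each stressed group averaged to 1 sample none of these calls held, and the adjusted p was 0.132 to 0.412.

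S100a4, found in fibroblasts and macrophages, encodes a protein that binds non-muscle myosin heavy chain IIA. It had 209, 201 and 207 FPKM in CRS+IMQ, against 142, 86.1 and 118 FPKM in IMQ. It had 146, 126 and 142 FPKM in CRS, against 231, 194 and 163 FPKM in control. CRS+IMQ and control libraries were high and overlapped, and CRS and IMQ libraries were low and overlapped. S100a4 was 1.78-fold higher in CRS+IMQ than in IMQ skin (0.86, SE 0.180, adjusted p = 0.0129), with an adjusted p of 0.0502 to 0.0536 without CRS+IMQ replicate 1, 2 or 3. It was 1.42-fold lower in CRS than in control skin (-0.49, SE 0.151, adjusted p = 0.0403), a call that did not hold after median-ratio scaling (-0.39, adjusted p = 0.0626) or quantile normalization (-0.25, adjusted p = 0.115), with no filter (adjusted p = 0.0732), or without CRS replicate 1, 2 or 3 or control replicate 1 or 2 (adjusted p = 0.0771 to 0.137).

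The difference between these changes in S100a4 was 1.35 (SE 0.245, adjusted p = 0.00101), or an adjusted p of 0.092 with each stressed group averaged to 1 sample. In IMQ against control skin S100a4 was not called (-0.78, SE 0.226, adjusted p = 0.056), though the libraries did not overlap. Its adjusted p was 0.00563 when all 12 libraries were fitted together, a fit that had given many false calls in an earlier simulation. Myh9, which encodes that myosin, was 1.77-fold higher in CRS+IMQ than in IMQ skin (0.82, SE 0.166, adjusted p = 0.0114) and was not called between CRS and control skin (-0.23, SE 0.086, adjusted p = 0.0738). Macrophage genes moved with S100a4, with a sum of 3084 to 3115 FPKM in CRS+IMQ and 344 to 527.5 FPKM in IMQ, and of 350 to 370 FPKM in CRS and 1992 to 2818 FPKM in control. Fibroblast genes did so on imiquimod, with 8 of 9 higher in CRS+IMQ than in IMQ skin, where 18.7% of all genes tested were called higher. In CRS against control skin 1 fibroblast gene was higher and 4 were lower, against 15.3% and 28.4% of all genes tested. The part of either cell type in the S100a4 values was not tested.

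S100a10 and S100a6 varied least. S100a10, or p11, forms a complex with annexin A2 at the cell membrane and no longer responds to calcium. It had 190.5, 183 and 193 FPKM in CRS+IMQ, against 137, 185 and 157 FPKM in IMQ. It had 158, 157 and 165 FPKM in CRS, against 212, 185 and 149 FPKM in control. Its libraries overlapped between all neighbouring groups in the order CRS+IMQ, control, CRS and IMQ. It was called only in CRS+IMQ against CRS skin, at 1.18-fold higher (0.24, SE 0.036, adjusted p = 0.00166), and this reversed to -0.11 (adjusted p = 0.0359) after quantile normalization and was lost when all 12 libraries were fitted together (adjusted p = 0.179). For stress without imiquimod the change was -0.17 (95% interval -0.52 to 0.19, adjusted p = 0.39), and on imiquimod 0.25 (95% interval -0.04 to 0.54, adjusted p = 0.145). It was called at -0.31 (adjusted p = 0.0313) without control replicate 3 in the first case, and at 0.36 (adjusted p = 0.0138) without IMQ replicate 2 or 0.325 (adjusted p = 0.0317) after median-ratio scaling in the second.

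Anxa2 changed more than its partner. It had 269 ± 3.03 FPKM in CRS+IMQ and 160 ± 10.6 FPKM in IMQ (1.68-fold higher, adjusted p = 0.000728), and 151 ± 6.05 FPKM in CRS and 284 ± 54.4 FPKM in control (1.88-fold lower, adjusted p = 0.00666). The ratio of Anxa2 to S100a10 was 1.43 ± 0.0480 in CRS+IMQ, 1.01 ± 0.0858 in IMQ, 0.945 ± 0.0154 in CRS and 1.56 ± 0.0752 in control (SD, n = 3 each). It was thus lower in CRS than in control in every library, at 0.928 to 0.958 against 1.496 to 1.641. The ratio itself was not tested.

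S100a6, or calcyclin, is expressed in many cell types and binds the Cacybp protein. It had 205.5, 198 and 208 FPKM in CRS+IMQ, against 231, 162 and 166 FPKM in IMQ. It had 148, 150.4 and 168 FPKM in CRS, against 206, 132 and 106 FPKM in control. The groups overlapped at each step of the order CRS+IMQ, IMQ, CRS and control. It was called only in CRS+IMQ against CRS skin, at 1.31-fold higher (0.39, SE 0.056, adjusted p = 0.00144), a call lost after quantile normalization (0.04, adjusted p = 0.433) and when all 12 libraries were fitted together (adjusted p = 0.162). Its change with stress was 0.13 (95% interval -0.46 to 0.71, adjusted p = 0.707) without imiquimod and 0.15 (95% interval -0.21 to 0.51, adjusted p = 0.466) on it. Without IMQ replicate 1 the change on imiquimod was 0.31 with an adjusted p of 0.0149. Cacybp was 1.25-fold lower in CRS+IMQ than in CRS skin (adjusted p = 0.00383).

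Among 8 further S100 genes in the tables, 3 were tested. S100a1, known from heart and skeletal muscle, had 70.2 ± 3.88 FPKM in CRS+IMQ and 110 ± 13.3 FPKM in IMQ, and 145 ± 6.29 FPKM in CRS and 93.7 ± 17.0 FPKM in control. It was lower with stress on imiquimod (-0.63, SE 0.107, adjusted p = 0.00584) and higher without it (0.64, SE 0.149, adjusted p = 0.0163), the opposite of S100a11 in both. S100b, a marker of Schwann cells and melanocytes, moved the same way as S100a1, at -0.49 (SE 0.136, adjusted p = 0.0347) and 0.44 (SE 0.081, adjusted p = 0.0067). S100a13 was lower in CRS than in control skin (-0.41, SE 0.113, adjusted p = 0.028). Of 7 skeletal muscle genes 7 were lower in CRS+IMQ than in IMQ skin, where 18.2% of all genes tested were called lower. In CRS against control skin 3 muscle genes were higher, 1 was lower and 3 were not called. Over all genes tested there 15.3% were called higher and 28.4% lower. The part of muscle RNA in the values of these S100 genes was not tested. S100a2, S100a5, S100a7l2, S100g and S100z stayed at 0.659 FPKM or less in every library.

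All 10 members lie on chromosome 3. From S100a14 to S100a9, 8 of the 10 genes lie between 90526856 and 90695721, and the other two, S100a11 and S100a10, lie 28.8 kb apart at 93520488 to 93564643. In CRS against control skin S100a3 was higher and S100a4, whose model starts 1.07 kb after its end, was lower. Likeness was measured as the Euclidean distance between group-mean log2(FPKM + 1) profiles over the 4 groups, each centred on its own mean. The closest members were S100a14 and S100a16 at 0.274, then S100a6 and S100a10 at 0.414, while S100a8 and S100a9 were 0.759 apart, over a range of 8.66 and 8.43 between their highest and lowest group.

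By the same distance, over 13153 genes and with predicted genes left out, Saa3 was the nearest gene to S100a9 (1.31) and to S100a8 (1.797), followed for both by Krt6b (1.497 and 1.857). The third was Gjb2 for S100a8 (1.88) and Csta3 for S100a9 (1.81). Saa3 had 462 ± 5.76 FPKM in CRS+IMQ, 6.47 ± 1.15 FPKM in IMQ, 1.05 ± 0.245 FPKM in CRS and 0.284 ± 0.0870 FPKM in control. Nearest to S100a7a were Pglyrp1 (0.138), Krt42 (0.142) and Mcemp1 (0.162), and nearest to S100a3 were Synpo2 (0.39), Mb (0.421) and Slc24a5 (0.423). S100a11 was closest to Actr2 (0.131), Inhbb (0.14) and Tgfa (0.141), and S100a14 to Slc39a6 (0.068), Nfe2l3 (0.11) and Kbtbd2 (0.12). The other 4 members spanned less than 1 log2 unit between groups and were not matched.

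The authors' deposited table for CRS against control marked S100a3, S100a8 and S100a9 as significant, with fold changes of 9.21, 9.98 and 5.45. It did not mark S100a11, S100a14 or S100a16, whose q-values there were 0.000372, 0.005 and 0.00393 at fold changes of 0.516, 0.543 and 0.554. The q-value of S100a4 in the authors' deposited table was 0.145. For CRS+IMQ against IMQ the authors' deposited table marked S100a3, S100a7a, S100a8, S100a9 and S100a11.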

How the data were processed

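Total RNA of 12 dorsal skin samples had been sequenced on an Illumina NovaSeq instrument, per the labels' protocols. The submitters' processing notes name StringTie, edgeR and limma without roles or versions and the build mm10. No aligner is named in the sources used here. FPKM values were taken as deposited by the authors, in 2 tables (CRS with control, CRS+IMQ with IMQ), with 0.0001 in place of 0, which was set back to 0. Beside them the deposited tables list fold changes (a ratio), log2 fold changes, p-values and q-values. Counts were not used here, so no count test was run, and depth was estimated.

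The members, gene lists and tests were chosen with earlier results of these data known. Values were log2(FPKM + 1), for genes that reached 1 FPKM in 3 or more of the fitted libraries. Robust empirical Bayes with a trended variance was used in limma 3.58.1 (R 4.3.3, statmod 1.5.0), 2 groups at a time, and over all 12 libraries for the interaction. The p-values were two-sided and Benjamini-Hochberg adjusted over all genes tested. The code was tested on simulated data. Groups were fitted 2 at a time because an earlier simulation with all 12 libraries fitted together had given many false calls.

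Named were all 10 members, the other S100 genes, and up to 4 genes per list with the smallest p per comparison, always Anxa1, Anxa2, Tlr4, Ager and Padi3. The 3 genes nearest in profile were added for members spanning at least 1 log2 unit. Krt85 was not matched and not analysed here. Positions are GRCm38 with GENCODE M21. Promoter windows are RefSeq (GRCm38.p6), found for 8 of 10 members. Alternatives covered the pseudocount, filter, scaling, variance model, replicate block, libraries in the fit, a minimum fold, leaving out each library, and averaging the libraries of each stressed group (for CRS+IMQ against CRS chosen after seeing the data).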

Additional observations from a re-analysis of the deposited data

Results flagged for a closer look

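The change with stress differed with and without imiquimod, by the interaction in limma, for 6 of the 10 S100 genes. Each value is the log2 change in CRS+IMQ against IMQ skin minus that in CRS against control skin, with 3 libraries in each group. It was -3.89 for S100a3, 1.35 for S100a4, 2.78 for S100a7a, 2.87 for S100a9, 1.97 for S100a11 and 0.96 for S100a14. The 2 changes had opposite signs for S100a4, S100a7a, S100a11 and S100a14, where the change on imiquimod was called for S100a4, S100a7a and S100a11. That of S100a7a could only come out higher, since it passed the filter through CRS+IMQ libraries alone. For S100a9 both were positive. S100a3 was not tested in CRS+IMQ against IMQ skin. Of all genes tested 49.3% were called for the interaction, a fit that pools groups of unlike spread.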

How the results depend on the processing

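The libraries of CRS+IMQ and CRS lay closer together than those of IMQ and control, and the labels do not say that they are separate animals. With each stressed group averaged to 1 sample, calls fell from 7 to 3 S100 genes and from 6086 to 838 of all genes in CRS against control, from 5 to 1 and from 5162 to 821 in CRS+IMQ against IMQ, from 10 to 3 and from 8536 to 1210 in CRS+IMQ against CRS, and from 6 to 2 and from 7325 to 2422 for the interaction. That fit has fewer samples. With a change of at least 2-fold required as well, 3 S100 genes and 1711 of all genes were called in CRS against control, 1469 of all genes in CRS+IMQ against IMQ, 1253 in IMQ against control, 6 S100 genes and 2041 of all genes in CRS+IMQ against CRS, and 3607 of all genes for the interaction. In IMQ against control 0 S100 genes were called with no filter in place of 2 (limma; 6734 of all genes then had an unadjusted p under 0.05 and 2025 were called), and 4 S100 genes and 5107 of all genes, in place of 2735, with all 12 libraries fitted; the cause was not tested.

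Leaving out 1 library at a time gave 4 to 8 S100 genes and 3872 to 6581 of all genes in CRS against control, 2 to 6 and 2872 to 5909 in CRS+IMQ against IMQ, 0 to 4 and 1084 to 2660 in IMQ against control, 9 to 10 and 7150 to 7651 in CRS+IMQ against CRS, and 5 to 7 and 6447 to 7857 for the interaction. Signs reversed only among S100a6, S100a10, S100a14 and S100a16. After quantile normalization S100a10 changed by 0.07 in CRS against control and by -0.107 in CRS+IMQ against CRS, and in CRS+IMQ against IMQ S100a6 changed by -0.005 and S100a14 by -0.05. The interaction of S100a6 was -0.009 after median-ratio scaling and -0.381 after quantile normalization. With 1 library left out, the log2 change of S100a6 in CRS against control ran from -0.086 to 0.39, that of S100a16 in CRS+IMQ against IMQ from -0.363 to 0.016, those of S100a14 and S100a16 in IMQ against control from -0.132 to 0.219 and from -0.179 to 0.235, and the interaction of S100a6 from -0.242 to 0.234.

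Quantile normalization moved the median change of all genes from 0.064 to -0.064 in CRS+IMQ against CRS and from 0.042 to -0.123 for the interaction. Same-numbered libraries did not deviate together (Pearson r of deviations -0.197 to 0.0397 across 11151 genes). Differently numbered libraries ran from -0.214 to 0.222 in IMQ against control, so these correlations show no pairing but cannot exclude one. With the replicate block 4811, 3974, 2049, 7882 and 7062 of all genes were called in CRS against control, CRS+IMQ against IMQ, IMQ against control, CRS+IMQ against CRS and the interaction, and 6, 5, 2, 10 and 6 S100 genes; S100a4 in CRS against control had an adjusted p of 0.0698. Depth limits S100a8, S100a9, S100a7a and S100a3 where they rest on 2 to 53 estimated fragments.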
